A study of Mus musculus with 6 samples.

Results

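Mitosis and G2/M genes are the genes whose products carry a cell from the end of DNA replication through division, and 33 of them were followed here as members of a list given by symbol. A member was measured through the probe sets that the annotation of the array assigns to its symbol alone, which gave 73 probe sets for 32 of the 33 genes. *Ccnb1* has no such probe set in the table used and is not analysed here. Where a gene had several probe sets, the one with the brightest mean of the 6 arrays stands for it, and these 32 are part of 18193 genes represented in the same way.

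The arrays held total RNA from dorsal midbrain of C57BL/6 mouse embryos at embryonic day 10.5, with 3 *Ezh2* cko and 3 control samples. Each sample had 1 Affymetrix array, of a platform that the methods call A430. *Ezh2* encodes the histone methyltransferase of Polycomb repressive complex PRC2. By the methods, the *Ezh2* cko embryos carried *Wnt1-Cre* and were homozygous for an *Ezh2* allele with a floxed SET domain, and the controls were littermates that either lacked Cre and were homozygous for the floxed allele or carried *Wnt1-Cre* with 1 floxed and 1 wild-type allele. The labels call every control WT and do not tell these apart. *Wnt1-Cre* acts in the midbrain and also in the neural crest. By antibody staining, the study reports loss of Ezh2 protein in the midbrain already at the stage of the arrays. It describes full recombination in the caudal midbrain, and incomplete recombination in the rostral dorsal midbrain at a later stage than that of the arrays. An *Ezh2* cko sample may therefore still hold some cells that kept Ezh2. Both groups came from 2 litters each, which the labels do not assign to samples, and the p-values measure the spread between these samples.

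Vertebrate progenitors of the neural tube divide at the ventricular surface, and the transcripts of mitotic genes rise late in each cell cycle and fall when a cell leaves the cycle as a neuron. Many of these genes share short promoter elements: the cell cycle genes homology region (CHR), through which the DREAM complex represses them in resting cells and the MYBL2 and FOXM1 complexes activate them in late cycle, and CCAAT boxes, which bind the factor NF-Y. In a tissue sample, the summed level of such genes follows how many cells are cycling and how much of each transcript a cycling cell holds. In bulk samples such as these, fewer cells of a type and less RNA per cell cannot be told apart.

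The promoters of the members carried the CHR motif more often than promoters at large. In RefSeq promoter windows of build GRCm38.p6, which span 250 bases before and 50 bases after an annotated start, 28 of the 33 members matched by symbol, with 30 windows (*Ect2* and *Prc1* have 2 overlapping windows each). The letters TTTGAA, or TTCAAA for the other strand, were in 22 of the 30 windows (73.3%), against 17.9% of all 32851 windows. CCAAT, or ATTGG for the other strand, was in 25 of the 30 (83.3%), against 37.4% of all windows, and 17 had 2 or more such matches (56.7%, against 11.7% of all windows). Both motifs stood in 20 of the 30 (66.7%, against 6.95%). Matches on the 2 strands were counted apart and can share bases, as the CCAAT matches of *Ube2c* at positions -186 and -183 from the start do. In the 115 windows of other mitotic genes the shares lay between those of the members and of all windows, at 44.3% for CHR, 62.6% for CCAAT, 37.4% for 2 or more CCAAT and 32.2% for both motifs. A match is a run of letters and was not tested as a binding site.

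The following 7 windows are shown because they put the CHR match in the 120 bases just before the only annotated start of the gene. Each runs 5′ to 3′ on the strand of the gene and ends at the base before the start, and capitals mark CHR and CCAAT matches on either strand. They lie at chr4:118437344-118437463 (*Cdc20*, minus strand), chr10:69352913-69353032 (*Cdk1*, minus), chr19:37376262-37376381 (*Kif11*, plus), chr4:117178773-117178892 (*Kif2c*, minus), chr7:135716380-135716499 (*Mki67*, minus), chr11:99024190-99024309 (*Top2a*, minus) and chr2:164769809-164769928 (*Ube2c*, plus).
Cdc20: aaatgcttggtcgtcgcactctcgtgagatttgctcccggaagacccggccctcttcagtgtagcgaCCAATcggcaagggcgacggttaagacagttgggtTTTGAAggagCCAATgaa
Cdk1: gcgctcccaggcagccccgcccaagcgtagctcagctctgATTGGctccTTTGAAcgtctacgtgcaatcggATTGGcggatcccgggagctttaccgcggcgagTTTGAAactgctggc
Kif11: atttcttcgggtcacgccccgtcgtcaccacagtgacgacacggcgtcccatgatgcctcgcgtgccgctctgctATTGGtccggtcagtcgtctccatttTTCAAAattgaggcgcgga
Kif2c: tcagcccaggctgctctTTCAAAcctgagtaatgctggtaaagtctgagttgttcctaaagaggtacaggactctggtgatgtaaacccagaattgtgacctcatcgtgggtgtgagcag
Mki67: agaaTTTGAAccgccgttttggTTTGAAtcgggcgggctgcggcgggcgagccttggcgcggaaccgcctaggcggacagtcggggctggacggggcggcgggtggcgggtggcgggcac
Top2a: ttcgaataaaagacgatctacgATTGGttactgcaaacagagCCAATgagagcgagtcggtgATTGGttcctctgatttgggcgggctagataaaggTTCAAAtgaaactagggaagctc
Ube2c: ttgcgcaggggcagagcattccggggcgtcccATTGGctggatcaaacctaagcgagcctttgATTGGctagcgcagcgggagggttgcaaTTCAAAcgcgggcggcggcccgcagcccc

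Over the 20 members with a CHR match, the median log2 difference, *Ezh2* cko minus control, was -0.03 (range -0.13 to 0.09). The 7 measured members whose windows lack it had a median of -0.05 (range -0.12 to -0.01). The range of the members without a match lay within that of the members with one, which reached further above 0.

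None of the measured mitosis and G2/M genes passed the test for a difference between the *Ezh2* cko and control midbrain. Of the 32 measured members, 0 passed an adjusted p of 0.05 in limma (Benjamini-Hochberg over all 45037 probe sets tested), a threshold that 0.302% of the 18193 genes passed. None had an unadjusted p under 0.05, against 8.87% of all genes. The methods name an unpaired t-test for statistical analysis, whereas their array section gives thresholds and no test. In this t-test 0 members had an unadjusted p under 0.05, against 1485 of all 18193 genes. The adjusted p of that t-test was passed by 0 of all genes, so its count of 0 members carries no information. The smallest adjusted p among the members was 0.789. The log2 differences lay between -0.13 and 0.09, which is 0.915-fold to 1.07-fold.

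The 95% interval of the log2 difference held 0 for every member, and its lower and upper bounds reached no further than -0.36 and 0.38 over the 32 genes, that is 0.780-fold and 1.30-fold. It lay wholly within 0.25 log2 units of 0 for 19 members and within 0.3 for 26. These are intervals for single genes and were not widened for their number. The median SD within the groups was 0.07 log2 units for the members, and 0.11 for all genes. The members are bright, and for the 5476 genes at or above the signal of the dimmest member the median SD was 0.09.

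**Figure D1:**
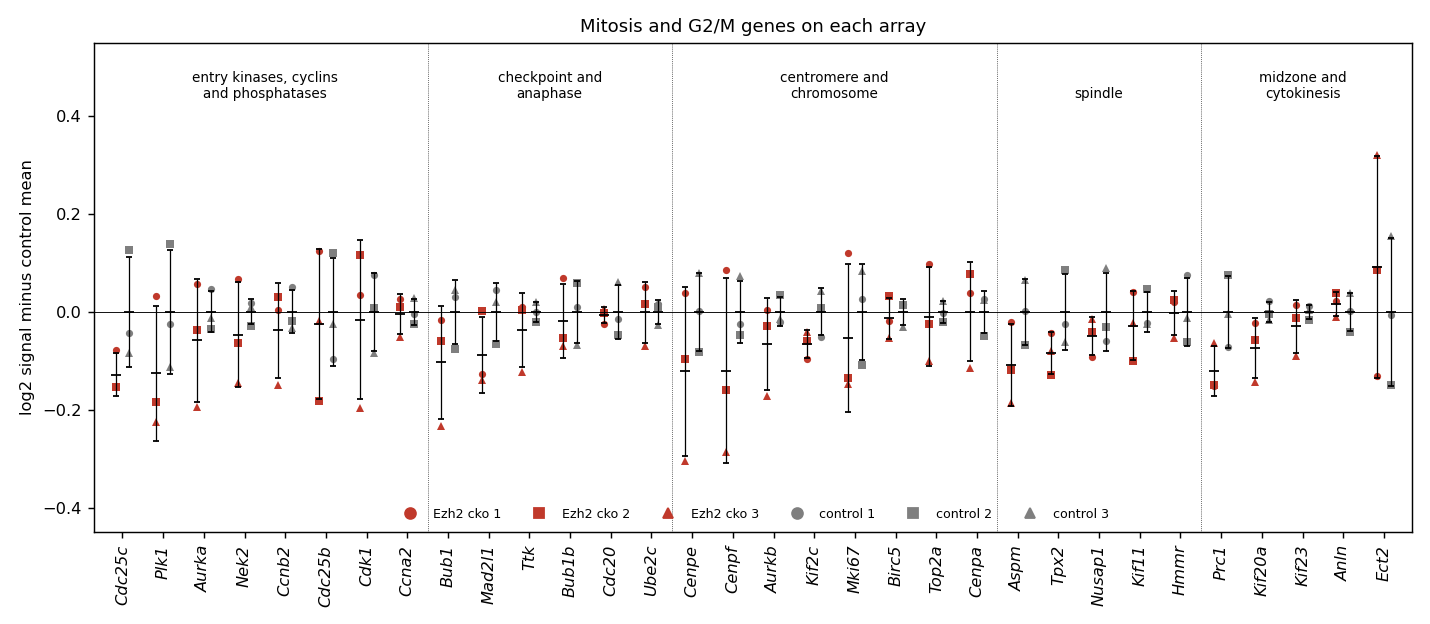
Log2 signal of each mitosis and G2/M gene minus its control mean (y axis) on the 3 *Ezh2* cko (red) and 3 control (grey) arrays, with 1 symbol shape per replicate and black lines for the mean and SD of each group. Genes are grouped by role on the x axis; the red and grey points overlap in every gene but *Kif20a*, and red triangles (*Ezh2* cko replicate 3) are often lowest.

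The kinases, cyclins and phosphatases that start mitosis had overlapping signals in both groups. *Cdk1* encodes the kinase whose activation by B-type cyclins drives entry into mitosis. Its log2 signal was 11.90, 11.98 and 11.67 in *Ezh2* cko replicates 1 to 3, and 11.94, 11.87 and 11.78 in control replicates 1 to 3. The *Ezh2* cko arrays held both the highest and the lowest value of the 6, and the log2 difference was -0.02 (95% interval -0.24 to 0.21, adjusted p = 0.987 from limma). The cyclin genes gave small differences, with *Ccnb2* (a B-type cyclin) at -0.04 and *Ccna2* (cyclin A2, which acts in S phase and early mitosis) at -0.0048. The other probe set of *Ccna2*, with a mean signal of 11.87 against 12.25, gave -0.11 (95% interval -0.29 to 0.07).

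*Cdc25c*, which encodes a phosphatase that removes inhibitory phosphates from CDK1, had the largest difference of all members. Its signals were 8.92, 8.85 and 8.85 in the *Ezh2* cko and 8.96, 9.13 and 8.92 in controls, a log2 difference of -0.13 (95% interval -0.32 to 0.06, adjusted p = 0.792). The highest *Ezh2* cko array lay just above the lowest control, so the groups overlapped, and its other probe set gave -0.03. The related phosphatase gene *Cdc25b*, which acts earlier at mitotic entry, was at -0.02 (95% interval -0.26 to 0.21). *Plk1*, which encodes polo-like kinase 1, was at 10.45, 10.23 and 10.19 in the *Ezh2* cko and at 10.39, 10.55 and 10.30 in controls (log2 difference -0.13, 95% interval -0.36 to 0.11, adjusted p = 0.839). *Ezh2* cko replicate 1 exceeded 2 of the 3 controls for this gene. The centrosomal kinase genes *Aurka* and *Nek2* were at -0.06 and -0.05. All 8 measured genes of this role had differences below 0, with a median of -0.04.

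Genes of the spindle assembly checkpoint, which holds anaphase until every chromosome is attached, and of anaphase promotion gave differences of a similar size. Their median was -0.03, with all 6 below 0. *Bub1*, a checkpoint kinase gene, had the largest difference here, with signals of 11.94, 11.89 and 11.72 in the *Ezh2* cko and 11.98, 11.88 and 12.00 in controls (log2 difference -0.10, 95% interval -0.30 to 0.09, adjusted p = 0.845). *Ezh2* cko replicates 1 and 2 were within the span of the controls, and replicate 3 was below it. The checkpoint genes *Mad2l1*, *Ttk* and *Bub1b* gave -0.09, -0.04 and -0.02. *Cdc20* and *Ube2c*, which encode an activator and a ubiquitin-conjugating enzyme of the anaphase-promoting complex, gave -0.0069 and -0.00089, and the interval of *Ube2c*, -0.17 to 0.17, was centred on 0.

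Centromere and chromosome genes included the markers most used to stain dividing cells. *Mki67*, which encodes the Ki67 antigen of cycling cells, was at 12.48, 12.23 and 12.22 in the *Ezh2* cko and at 12.39, 12.25 and 12.45 in controls. Its highest value was in the *Ezh2* cko, and the log2 difference was -0.05 (95% interval -0.28 to 0.17, adjusted p = 0.941). *Top2a*, the topoisomerase gene needed to disentangle sister chromatids, was at 13.14, 13.02 and 12.94 in the *Ezh2* cko and at 13.04, 13.02 and 13.07 in controls. The controls of *Top2a* lay within the span of the *Ezh2* cko arrays, at a log2 difference of -0.01 (95% interval -0.19 to 0.17, adjusted p = 0.991). Its other probe sets, with mean signals of 6.84 and 4.54, gave 0.10 and -0.21.

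The kinetochore genes *Cenpe*, which encodes a kinesin, and *Cenpf* had the largest differences of this role, through the same array. *Cenpe* was at 10.63, 10.50 and 10.29 in the *Ezh2* cko and at 10.60, 10.51 and 10.67 in controls (log2 difference -0.12, 95% interval -0.35 to 0.11, adjusted p = 0.846). *Cenpf* was at 11.48, 11.24 and 11.11 in the *Ezh2* cko and at 11.37, 11.35 and 11.47 in controls (log2 difference -0.12, 95% interval -0.36 to 0.12, adjusted p = 0.849). In each, *Ezh2* cko replicate 3 was lowest. *Ezh2* cko replicate 1 was above 2 of the 3 controls in *Cenpe* and above all 3 in *Cenpf*. The other probe sets were at 0.16 (*Cenpe*) and at 0.08 and 0.31 (*Cenpf*, with mean signals of 6.98 and 6.28 against 11.34). *Aurkb* and *Birc5*, kinase and survivin subunits of the chromosomal passenger complex, gave -0.07 and -0.01, the depolymerising kinesin gene *Kif2c* gave -0.07, and *Cenpa*, the centromeric histone H3 variant, gave 0.00038. The role as a whole had a median of -0.06, with 7 of 8 below 0.

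Spindle genes and the genes of the midzone, where microtubules of the dividing cell overlap before cytokinesis, gave no call either. *Aspm*, a spindle pole gene whose human counterpart is mutated in primary microcephaly, was at 11.03, 10.93 and 10.86 in the *Ezh2* cko and at 11.05, 10.98 and 11.11 in controls (log2 difference -0.11, 95% interval -0.29 to 0.08, adjusted p = 0.821). Its groups overlapped through *Ezh2* cko replicate 1 and control replicate 2. The other probe sets of *Aspm*, with mean signals of 8.61, 5.01, 4.81 and 3.97, gave -0.07, -0.25, 0.03 and 0.06. The microtubule factor genes *Tpx2*, *Nusap1* and *Hmmr* gave -0.08, -0.05 and -0.0024, and *Kif11*, which encodes the motor that separates the spindle poles, gave -0.03. Their median, with *Aspm*, was -0.05.

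*Prc1*, which encodes the protein that bundles midzone microtubules, was at 10.96, 10.97 and 11.05 in the *Ezh2* cko and at 11.04, 11.19 and 11.11 in controls. *Ezh2* cko replicate 3 was just above control replicate 1, so the groups overlapped. The log2 difference was -0.12 (95% interval -0.30 to 0.06, adjusted p = 0.789), and its other probe set gave -0.02. The midzone kinesin gene *Kif20a* was the only member without overlap between the groups, at 10.52, 10.48 and 10.40 in the *Ezh2* cko and 10.56, 10.54 and 10.53 in controls. That difference was small, at -0.07 on the log2 scale (95% interval -0.24 to 0.09, adjusted p = 0.868), and non-overlap with lower *Ezh2* cko values occurred in 1 of 32 members, against 7.88% of all genes and 10.6% of the bright genes. *Kif23*, a kinesin gene of the centralspindlin complex, gave -0.03 and the contractile ring gene *Anln* gave 0.02.

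*Ect2*, which encodes the exchange factor that activates RhoA for cytokinesis, had the highest difference and the widest spread of the members, and was picked out for that after its values were seen. It was at 10.86, 11.08 and 11.31 in the *Ezh2* cko and at 10.98, 10.84 and 11.15 in controls. The groups overlapped, the log2 difference was 0.09 (95% interval -0.20 to 0.38, adjusted p = 0.919), and this was the one member that was highest on *Ezh2* cko replicate 3.

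**Figure D2:**
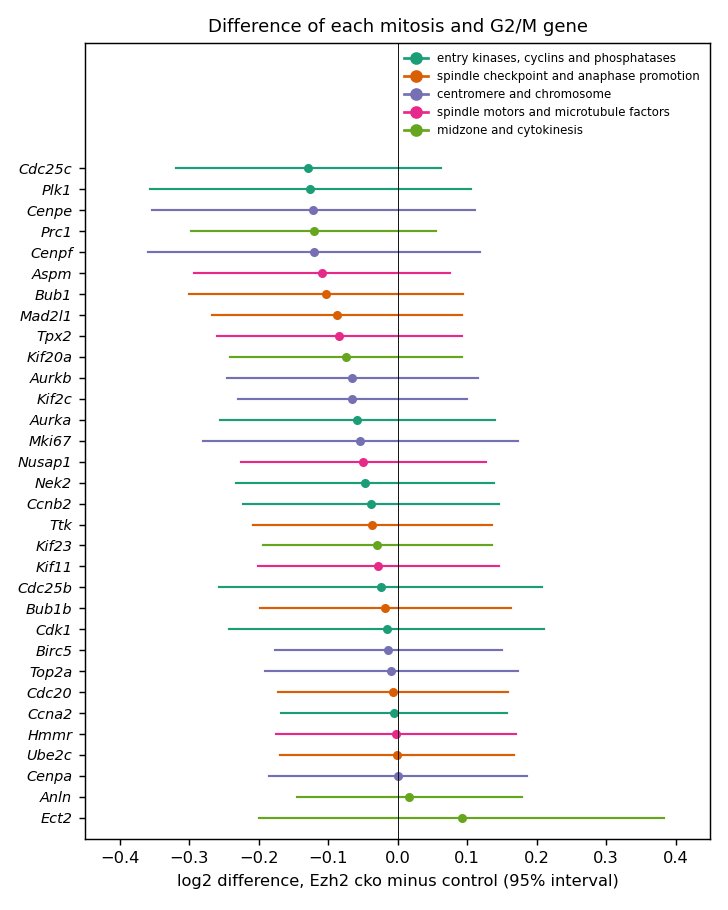
Log2 difference, *Ezh2* cko minus control (x axis), of each of the 32 measured genes (y axis, lowest at the top), with its 95% interval from limma as a line and the role as colour. Every interval crosses 0, and no bound reaches beyond -0.36 or 0.38.

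The small differences were mostly on the same side of 0, and 1 array carried much of that. The log2 difference was below 0 for 29 of the 32 members, against 57% of all genes and 60.5% of the 5476 bright genes, and with the arrays scaled otherwise it was below 0 for 27 (median centring), 25 (quantile normalization again) and 22 (cyclic loess). The median was -0.04 for the members and -0.02 for all genes. *Ezh2* cko replicate 3 was the lowest of the 6 arrays in 21 of the 32 members (65.6%), against 21.9% of all genes. Without that array, 18 of the 32 members were below 0, against 55.5% of all genes, and the median was -0.01. When any other single array was left out, 26 to 29 members were below 0 and the median lay between -0.06 and -0.04.

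**Figure D3:**
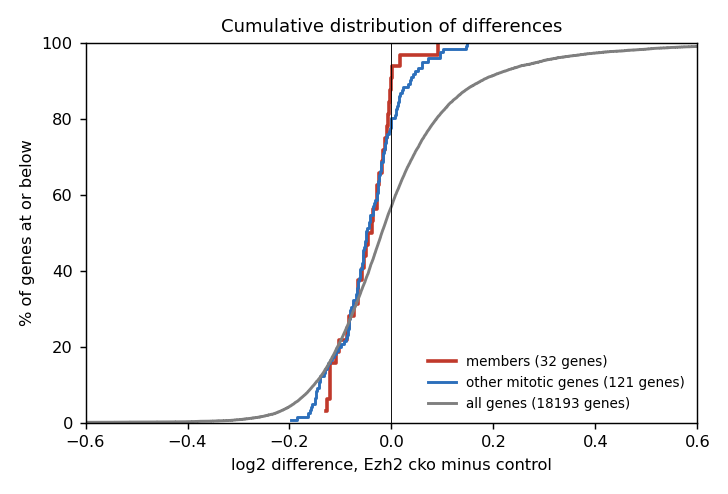
Percent of genes (y axis) at or below a given log2 difference, *Ezh2* cko minus control (x axis, shown from -0.6 to 0.6), for the 32 members (red), 121 other mitotic genes (blue) and all 18193 genes (grey). The red and blue curves are steep and lie mainly between -0.2 and 0.15, and they cross 50% at -0.04 and -0.05, near the -0.02 of all genes.

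The same array was the highest for the markers of several other cell types, neurons among them. The mean log2 deviation of the 32 members from each gene's own mean was 0.03, -0.02 and -0.08 in *Ezh2* cko replicates 1 to 3, and 0.02, 0.02 and 0.03 in control replicates 1 to 3. For 23 neuron markers, among them *Tubb3*, *Dcx* and *Stmn2*, it was -0.05, 0.14 and 0.43 in the *Ezh2* cko, and -0.44, -0.05 and -0.02 in controls. Of these markers 20 had a log2 difference above 0 and none passed the adjusted p (12 had an unadjusted p under 0.05, all higher, against 6.12% of all genes), with a median of 0.36. The 14 neural progenitor markers, with a median difference of 0.04, deviated by -0.02, 0.001 and 0.10 in the *Ezh2* cko, and by -0.08, -0.03 and 0.02 in controls. Single progenitor markers moved both ways, with 2 higher and 2 lower at an unadjusted p under 0.05, against 8.87% of all genes in either direction. By this mean, *Ezh2* cko replicate 3 was also the highest array for the macrophage (0.26), neural crest (0.24) and mesenchyme (0.19) markers. It was highest for the surface ectoderm and epithelium markers too (0.095), although only 1 of those 12 genes was itself highest on that array. For the endothelium (-0.09) and erythroid (-0.06) markers the mean on that array was below 0. Control replicate 1 was the lowest for the macrophage (-0.48), mesenchyme (-0.36), neural crest (-0.10) and progenitor markers as well as for the neuron markers. With the neuron marker mean as a term of the model, 16 of the 32 members were below 0, against 52.5% of all genes. The members' median was then 0.00033, against -0.0075 for all genes, and 0 members passed the adjusted p. The neuron marker mean itself differed between the groups, so over 6 arrays this term and the group cannot be fully separated. The part of neuronal or other cell content in the small shift of the members was not tested.

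**Figure D4:**
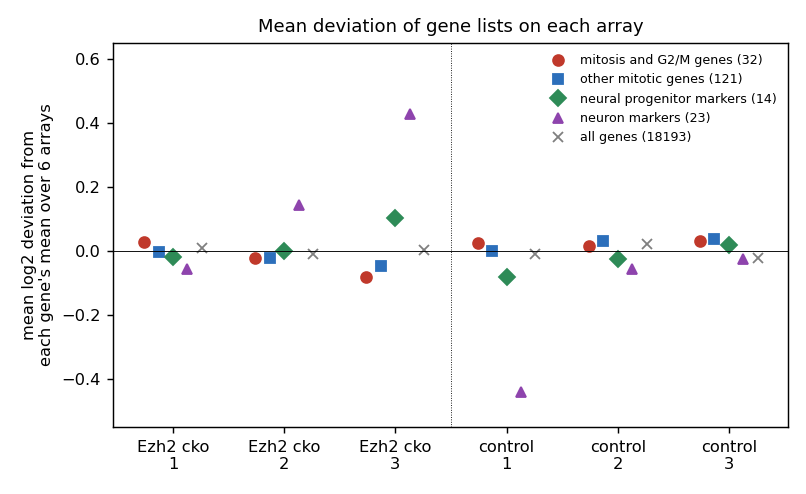
Deviation of log2 signal from the 6-array mean of each gene, averaged over a list (y axis), for 5 gene lists on each *Ezh2* cko and control array (x axis), with the number of genes in parentheses. The members stay between -0.08 and 0.03 on every array, whereas the neuron markers span -0.44 to 0.43.

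Probe sets that do not represent a gene gave no further call. Of all 73 probe sets of the members, 0 passed the adjusted p, against 0.189% of all probe sets, and 1 had an unadjusted p under 0.05, a dim set of *Kif2c* (log2 difference 0.26, adjusted p = 0.469). The differences ran from -0.25 to 0.31, with 50 below 0 (68.5%). Among the 41 sets that do not represent their gene, 21 were below 0 and 20 above. In 15 of the 22 members with several sets, the sets lay on both sides of 0.

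Mitotic genes outside the list gave no call either. Of 123 further genes, 121 were measured, covering the kinetochore, condensin and cohesin, other kinesins, the centrosome and midbody, and regulators of entry and exit. None of the 121 passed the adjusted p, and none had an unadjusted p under 0.05 in limma, while 7 of the 121 did in the unpaired t-test of the methods, against 1485 of all 18193 genes. Their median log2 difference was -0.05, with 97 of 121 below 0. The lowest were the kinetochore gene *Cenph* (-0.20, adjusted p = 0.767), the kinesin gene *Kifc1* (-0.19, adjusted p = 0.901) and the condensin gene *Ncaph2* (-0.16, adjusted p = 0.767). *Zwint*, which encodes a kinetochore protein, the kinesin gene *Kif14* and the spindle gene *Knstrn* were highest, at 0.15, 0.15 and 0.10 (adjusted p of 0.754, 0.814 and 0.805). The probe set of *Kif14* was dim, with mean log2 signals of 3.61 in the *Ezh2* cko and 3.46 in controls. *Foxm1* and *Mybl2*, which encode the activators named above, gave -0.12 and -0.14 (adjusted p of 0.846 and 0.827). The *Ezh2* cko arrays lay below every control in 13 of the 121 genes (10.7%) and above every control in 2, against 7.88% and 7.52% of all genes. Of the 5476 bright genes, 578 (10.6%) lay below every control and 346 above. *Ezh2* cko replicate 3 was lowest in 42 of the 121 (34.7%).

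For the arrays as a whole, 83 probe sets were higher (0.184%) and 2 lower (0.00444%) in the *Ezh2* cko at the adjusted p. The medians of the 6 arrays were 5.68 to 5.72, and they correlated at 0.993 or more across probe sets. *Ezh2* itself, through a probe set not placed inside or outside the deleted part, was at 11.79, 11.74 and 11.72 in the *Ezh2* cko and at 11.69, 11.76 and 11.66 in controls (adjusted p = 0.918), which does not check the deletion. The midbrain genes *Otx2* and *En2* had mean log2 signals of 11.34 and 12.51 in the *Ezh2* cko and 11.25 and 12.34 in controls (adjusted p of 0.877 and 0.712). At an unadjusted p under 0.05 in limma, 2 of the 8 midbrain markers were higher and 1 was lower. These were *Wnt1* (log2 difference 0.90, adjusted p = 0.0712) and *En1* (0.37), and *Pax5* (-0.25). None of the 8 midbrain, 15 mesenchyme, 7 neural crest, 9 erythroid, 12 endothelium and 12 macrophage markers measured passed the adjusted p, and 2 of 12 markers of surface ectoderm and epithelium did, both higher. The mesenchyme markers had a median log2 difference of 0.24, with 13 of 15 above 0 and an unadjusted p under 0.05 in 6 higher and 1 lower. The macrophage markers had a median of 0.23, with 11 of 12 above 0 and 2 higher at the unadjusted p. Of all genes, 8.87% had an unadjusted p under 0.05 in limma, and 6.12% were higher at that p. The medians were 0.13 for the midbrain, 0.06 for the neural crest, 0.06 for the endothelium, 0.02 for the surface ectoderm and epithelium and -0.08 for the erythroid markers.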

How the data were processed

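The submitters deposited RMA values, in which probes are background-corrected, quantile-normalized over arrays and summarised to a log2 signal for each probe set (RMA version not given in the sources used here). Such signals carry no depth and no level that marks absence, so a probe set is compared only with itself, and the number of arrays limits the precision. After removal of 64 control probe sets, 45037 entered limma 3.58.1 under R 4.3.3 (functions lmFit and eBayes, *Ezh2* cko minus control, no covariate), with Benjamini-Hochberg adjustment over all of them and a threshold of 0.05. The platform annotation used here names a single gene for 34945 probe sets, several for 932 and no gene for 9160. Symbols were updated through Entrez identifiers, of which 34741 matched RefSeq genes of GRCm38.p6. Promoter windows came from RefSeq. The fit was tested on simulated data.

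The members, roles, lists of other mitotic genes and markers were chosen with earlier results of these data known. Signals on each array are given for the 6 members with the largest absolute difference, any without overlap between the groups, *Mki67*, *Top2a* and *Cdk1*, and for *Bub1*, *Ect2* and *Ezh2* beyond that rule. Of the other mitotic genes, the 3 highest and 3 lowest are named, with *Foxm1* and *Mybl2* beyond the rule. Alternatives were the unpaired t-test of the methods, other variance priors, array weights, removal of dim probe sets, other scalings, removal of sets marked as cross-hybridising, the replicate number as a block, the neuron marker mean as a term, each array left out, other thresholds and the mean over a gene's probe sets.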

Additional observations from a re-analysis of the deposited data

How the results depend on the processing

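No member passed the adjusted p under any alternative, of which the t-test of the methods passed 0 of all genes. The lowest adjusted p of a member ranged from 0.592 (without control replicate 3) to 0.936 (without *Ezh2* cko replicate 2). In the fit without *Ezh2* cko replicate 1, 1 of the 32 members had an unadjusted p under 0.05. In the main limma fit 8.87% of all genes did. The sign of the difference turned in 13 of 32 members without *Ezh2* cko replicate 3, in 15 with the neuron marker mean as a term and in at most 8 otherwise. The members' median stayed between -0.06 and -0.01 with single arrays left out and between -0.04 and 0.00033 otherwise. By role, the median of the entry genes was 0.032 with the neuron term and 0.0060 without *Ezh2* cko replicate 3, those of the checkpoint and centromere genes were 0.0052 and 0.0088 with the neuron term, and that of the midzone genes was 0.0083 with the mean over a gene's probe sets. Without single arrays the midzone median ranged from -0.051 to -0.023.

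Over all probe sets, against 83 higher and 2 lower, the t-test of the methods gave 0 and 0 (3025 at an unadjusted p under 0.05, and 59 higher and 2 lower at the fold of 1.75 and p of 0.01 of the methods), the neuron term 10 and 2, the trended and robust prior 106 and 5, the unadjusted p 2024 and 1376, and the methods' thresholds in limma 108 and 9. Leaving out single arrays gave 20 to 44 higher and 1 to 4 lower. Same-numbered samples did not deviate together (r of 0.06, -0.20 and 0.06), and the replicate block gave 56 higher and 3 lower, and 0 members. The half-widths of the members' 95% intervals, 0.16 to 0.29 log2 units, show what 3 arrays a group can resolve.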
